A study of Mus musculus with 8 samples.

Results

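This report describes 10 genes of the growth hormone, STAT5 and IGF1 axis in mouse liver. They are the receptor gene *Ghr*, the transcription factor genes *Stat5a* and *Stat5b*, the feedback inhibitor genes *Socs2* and *Cish*, the hormone gene *Igf1*, its carrier gene *Igfals*, and the binding protein genes *Igfbp1*, *Igfbp2* and *Igfbp4*. They were chosen by name and not by a rule on their values, though earlier results of these data were known. Each was found once by its Ensembl identifier among the 45706 identifiers of the count table. All 10 were among the 15491 genes that passed the filter on low counts. None of the 10 passed an adjusted p of 0.05 between the groups in edgeR's quasi-likelihood test with Benjamini-Hochberg adjustment, while the highest of the 8 livers exceeded the lowest by 25.5-fold in *Cish* and by 10.8-fold in *Socs2*.

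Growth hormone binds its receptor on hepatocytes, the attached kinase JAK2 phosphorylates STAT5, and STAT5 enters the nucleus and activates genes such as *Igf1*, *Igfals*, *Socs2* and *Cish*. SOCS2 and CISH then damp the receptor's signal. In male rodents growth hormone is released in pulses, and hepatic STAT5 activity rises and ends with each pulse. The liver is the main source of circulating IGF1, which travels bound to IGF-binding proteins, and the liver's *Igfbp1* is lowered by insulin and raised by fasting.

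Liver RNA was sequenced from 8 male mice, 4 labelled *Srsf10-kd* (genotype label Srsf10KD) and 4 labelled *Ctrl* (genotype label WT). All 8 mice carried an AAV with GFP and a mirE/shRNA (an artificial microRNA that carries a short hairpin RNA) under the chicken β-actin (CBA) promoter, which is active in many cell types. The hairpin was directed against *Srsf10*, a splicing factor gene, or was a control. The mice were of the strain labelled C56B6/J, were injected at 6 weeks of age, and were fed a high-fat diet (HFD, 60% of calories from fat) for 12 weeks from 4 weeks after the injection. Levels are given as CPM, the reads of a gene scaled by TMM to a common library size. P-values measure the spread between these 4 and 4 livers.

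*Srsf10* itself was at 31.6, 33.7, 35.3 and 30.9 CPM in *Ctrl* livers 1 to 4, and at 34.3, 34.0, 41.0 and 36.5 CPM in livers 1 to 4 labelled *Srsf10-kd*. In these counts it was thus not lower under that label (log2 fold change 0.15, SE 0.10, adjusted p = 0.378, edgeR's quasi-likelihood test), and *Srsf10-kd* stands here for a label alone. The paper reports less SRSF10 protein by western blot and less *Srsf10* RNA by qPCR in livers of mice given this hairpin. Those measurements were not examined here. The count totals per liver lay from 50456404 to 59697241. The liver labelled *Srsf10-kd* 3 stood apart from the rest, at 67.4 on a first principal component that held 44.8% of the variance. On it the other livers of its label lay between 1.92 and 11.5. All *Ctrl* livers lay lower, from -41.8 in *Ctrl* 4 to -2.91 in *Ctrl* 3. The log2 counts of *Srsf10-kd* 3 also rose least with transcript length. The slopes were 0.70, 0.71, 0.58 and 0.74 in *Ctrl* livers 1 to 4. They were 0.58, 0.58, 0.43 and 0.54 in *Srsf10-kd* livers 1 to 4. The slope was thus mostly lower under the *Srsf10-kd* label, with overlap only through *Ctrl* 3. Summed hepatocyte markers, none of them at 0, were at 82776 to 110353 CPM in *Ctrl* and at 100039 to 115856 CPM in *Srsf10-kd*. Most of this sum was *Alb*, at 45844.5 to 78039 CPM in *Ctrl* and at 66925 to 83145 CPM in *Srsf10-kd*. Of the 12 markers, 6 had a log2 fold change above 0 and 6 below. In bulk tissue fewer cells of a type and less RNA per cell cannot be told apart.

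Promoter sequence was looked at because *Socs2*, *Cish* and *Igfals* are known STAT5 targets, and *Igfbp1* is a known target of the insulin-regulated FOXO factors. Of the 10 genes, 9 had RefSeq promoter windows (GRCm38.p6, 250 bases before to 50 after a transcript start), 15 windows in all, and *Socs2* had none there. The STAT5 motif TTCNNNGAA, searched on both strands (it is its own reverse complement in its fixed letters), occurred in 2726 of 32851 windows of all genes (8.30%). Among the 10 genes it occurred in the window of *Cish*, 2 times, and once in each of a pair of *Igfals* windows. The insulin response element core CAAAACAA occurred on either strand in 825 windows (2.51%), and among the 10 genes only in the window of *Igfbp1*. Neither motif was in the windows of *Ghr*, *Stat5a*, *Stat5b*, *Igf1*, *Igfbp2* or *Igfbp4*, which says only that these letters are not in those bases. The stretches below are on the + strand, with the motif matches in capitals. That of *Cish* is the 30 bases around both matches, which lie from bases 1 to 9 and 12 to 20 of the RefSeq transcript. Each of the others ends before the first annotated exon base within its own window. Both *Igfals* stretches lie inside the annotated gene, which spans 24865997 to 24882010 on the plus strand and begins upstream of them. In the pair of *Igfals* stretches the matches lie at -236 to -228 and at -58 to -50 from a transcript start, and in *Igfbp1* at -108 to -101.
Cish, chr9:107296654-107296683: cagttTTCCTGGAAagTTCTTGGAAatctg
Igfals, chr17:24877594-24877655: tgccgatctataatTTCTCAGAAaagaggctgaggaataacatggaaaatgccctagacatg
Igfals, chr17:24877981-24878214: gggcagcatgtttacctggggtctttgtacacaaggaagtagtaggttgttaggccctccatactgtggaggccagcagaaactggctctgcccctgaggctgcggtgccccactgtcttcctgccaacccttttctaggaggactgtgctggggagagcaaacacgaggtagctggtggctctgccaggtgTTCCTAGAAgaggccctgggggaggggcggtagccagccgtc
Igfbp1, chr11:7197537-7197781: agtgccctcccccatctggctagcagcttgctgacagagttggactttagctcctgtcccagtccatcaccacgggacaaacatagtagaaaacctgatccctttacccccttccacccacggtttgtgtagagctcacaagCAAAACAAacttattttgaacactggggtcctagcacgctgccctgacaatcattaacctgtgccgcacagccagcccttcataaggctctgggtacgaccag

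The receptor gene *Ghr* (ENSMUSG00000055737, chromosome 15 from 3317760 to 3583492, minus strand, GRCm38) was at 517, 499, 531 and 328 CPM in *Ctrl* livers 1 to 4. It was at 362, 525, 491 and 395 CPM in *Srsf10-kd* livers 1 to 4. The lowest livers were *Ctrl* 4 and *Srsf10-kd* 1, and the groups overlapped over most of their range. The means were 469 ± 95.1 and 443 ± 77.1 CPM (SD, n = 4), and the log2 fold change was -0.08 (95% interval -0.49 to 0.33, adjusted p = 0.802, edgeR's quasi-likelihood test). Over the 70 possible splits of the livers, an exact permutation test (two-sided, smallest possible p 0.0286) gave p = 0.80.

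*Stat5b* (ENSMUSG00000020919, chromosome 11 from 100780731 to 100850724, minus strand), the form of STAT5 that prevails in liver, was at 44.2, 40.8, 31.0 and 38.8 CPM in *Ctrl* and at 35.1, 45.3, 32.0 and 32.8 CPM in *Srsf10-kd*. Its neighbour *Stat5a* (ENSMUSG00000004043, chromosome 11 from 100859351 to 100885169, plus strand) was at 17.3, 16.5, 11.9 and 14.5 CPM and at 13.2, 17.1, 10.3 and 12.2 CPM. Both were highest in *Ctrl* 1 and *Srsf10-kd* 2 and lowest in the third liver of each group, and in both genes the groups overlapped. The log2 fold changes were -0.09 for *Stat5b* (95% interval -0.42 to 0.24, adjusted p = 0.717) and -0.19 for *Stat5a* (95% interval -0.57 to 0.20, adjusted p = 0.510, both from edgeR's quasi-likelihood test). The ratio of *Stat5b* to *Stat5a* in CPM varied little, from 2.47 to 3.09 over the 8 livers, with its highest value in *Srsf10-kd* 3. The 2 genes have 387 stretches of 75 bases in common (5.12% of those of *Stat5a* and 6.99% of those of *Stat5b*), so a small part of their counts is uncertain.

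*Socs2* (ENSMUSG00000020027, chromosome 10 from 95385362 to 95417180, minus strand) encodes a feedback inhibitor of the receptor. It was at 13.1, 4.10, 3.78 and 5.0 CPM in *Ctrl* livers 1 to 4, and at 8.87, 5.73, 40.7 and 21.1 CPM in *Srsf10-kd* livers 1 to 4. *Srsf10-kd* 3 and 4 were the highest livers of all, *Ctrl* 1 was the third, and the other *Ctrl* livers were the lowest. The means were 6.49 ± 4.41 CPM in *Ctrl* and 19.1 ± 15.8 CPM in *Srsf10-kd* (SD, n = 4), and the log2 fold change was 1.56 (SE 0.61, 95% interval 0.19 to 2.92). Its unadjusted p was 0.0292 and its adjusted p 0.195 in edgeR's quasi-likelihood test, and the two-sided exact permutation test gave p = 0.143. Without *Srsf10-kd* 3 the log2 fold change was 0.88, and without *Ctrl* 1 it was 2.15. *Ctrl* 1 was the liver that made the groups overlap, as without it all *Srsf10-kd* livers lay above the remaining *Ctrl* livers. The share of all genes without overlap was not computed with that liver left out, so this sets *Socs2* apart from no other gene. Of the 75-base stretches of *Socs2*, 3.16% also occur in other transcripts.

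*Cish* (ENSMUSG00000032578, chromosome 9 from 107296026 to 107302784, plus strand), whose product blocks STAT5 docking at cytokine receptors, varied more than any other of the 10 genes. It was at 26.1, 2.58, 5.63 and 2.0 CPM in *Ctrl* livers 1 to 4 and at 3.17, 3.38, 51.0 and 15.4 CPM in *Srsf10-kd* livers 1 to 4. The highest livers were again *Srsf10-kd* 3, *Ctrl* 1 and *Srsf10-kd* 4, and the other 5 livers, from both groups, lay between 2.0 and 5.63 CPM. Counts were not the limit, since the lowest liver had 114 reads on the gene and the highest 2624. The means were 9.08 ± 11.5 and 18.3 ± 22.6 CPM (SD, n = 4), with a log2 fold change of 1.01 (95% interval -1.23 to 3.25, adjusted p = 0.547, edgeR's quasi-likelihood test). The two-sided exact permutation test gave p = 0.543. The direction rested on single livers, since the log2 fold change was -0.30 without *Srsf10-kd* 3 and 2.43 without *Ctrl* 1. Of its exon bases 11.5% are overlapped by genes on the other strand (*Gm17040* and *Gm17041*), and the strand setting of the counts is not given in the sources used here, so reads of these genes cannot be told apart from its own there.

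**Figure D1:**
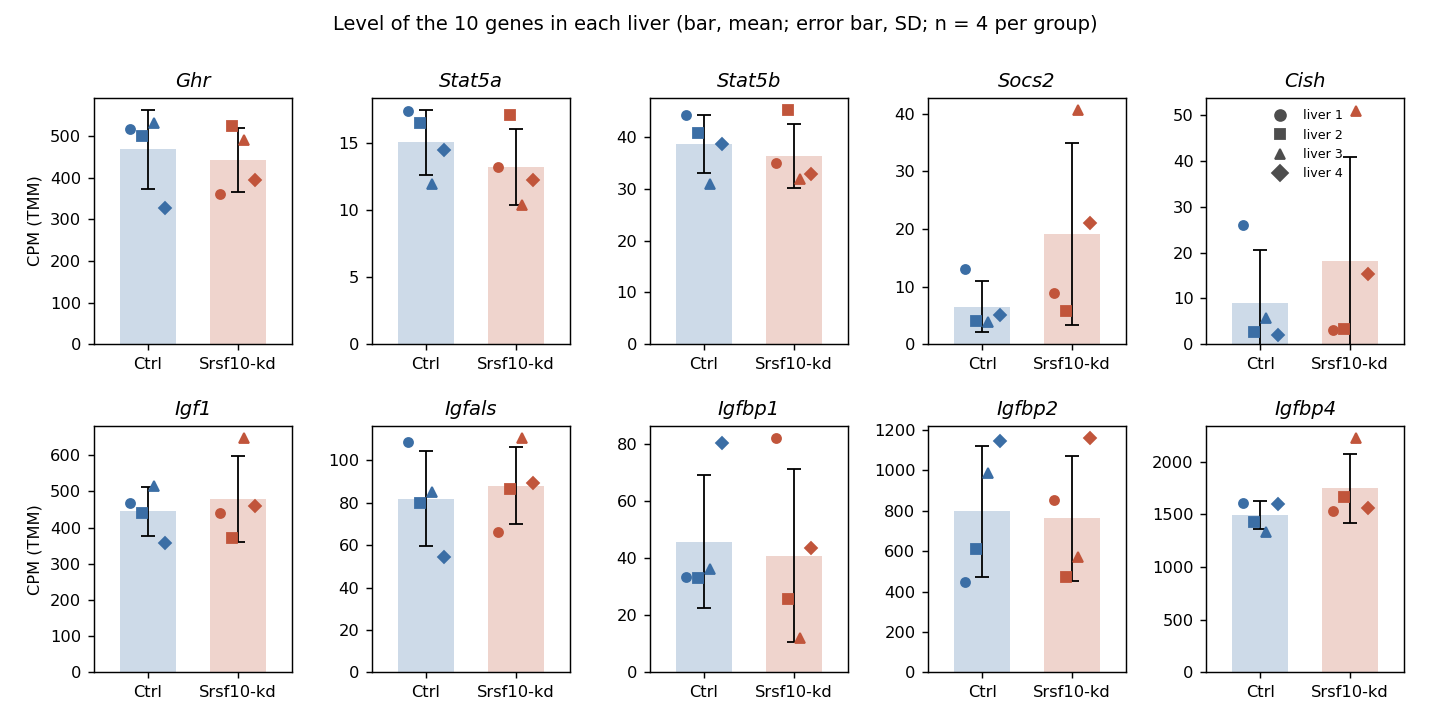
Level of each of the 10 genes in CPM (y axis, linear, from 0) in the 4 *Ctrl* and 4 *Srsf10-kd* livers; bars show the mean, error bars the SD (cut off at 0 in *Cish*), and marker shapes the liver number. In all 10 genes the groups overlap, and *Socs2* and *Cish* are highest in *Srsf10-kd* 3.

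*Igf1* (ENSMUSG00000020053, chromosome 10 from 87858265 to 87937042, plus strand), the hormone through which much of growth hormone's action on growth is exerted, was at 468, 440, 515 and 356 CPM in *Ctrl* livers 1 to 4. It was at 439, 370, 648 and 461 CPM in *Srsf10-kd* livers 1 to 4. Its highest liver was *Srsf10-kd* 3 and its lowest *Ctrl* 4, but it spanned far less than *Socs2* or *Cish*. The log2 fold change was 0.11 (95% interval -0.30 to 0.52, adjusted p = 0.733, edgeR's quasi-likelihood test), and it was -0.07 without *Srsf10-kd* 3 and 0.21 without *Srsf10-kd* 2. Once the libraries' trends on transcript length were removed, it was 0.36 (adjusted p = 0.480 by the same test).

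*Igfals* (ENSMUSG00000046070, chromosome 17 from 24865997 to 24882010, plus strand) encodes the acid-labile subunit, which holds IGF1 in a long-lived complex in blood. It was at 109, 79.9, 85.0 and 54.2 CPM in *Ctrl* livers 1 to 4 and at 66.1, 86.5, 110 and 89.0 CPM in *Srsf10-kd* livers 1 to 4. Like *Ghr*, it was lowest in *Ctrl* 4 and *Srsf10-kd* 1, a pair of livers that were the lowest 2 in 581 of the genes tested (3.75%). The pair was picked after the levels of these genes were seen, so the share is no test of a shared pattern. *Igfals* was highest in *Srsf10-kd* 3, *Ctrl* 1 and *Srsf10-kd* 4, as *Socs2* and *Cish* were, and the groups overlapped. The log2 fold change was 0.10 (95% interval -0.37 to 0.58, adjusted p = 0.786, edgeR's quasi-likelihood test).

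*Igfbp1* (ENSMUSG00000020429, chromosome 11 from 7197782 to 7202546, plus strand), the insulin-lowered binding protein, was at 33.3, 32.9, 36.3 and 80.3 CPM in *Ctrl* livers 1 to 4. In *Srsf10-kd* livers 1 to 4 it was at 82.0, 25.5, 12.1 and 43.5 CPM. Its highest livers, *Srsf10-kd* 1 and *Ctrl* 4, were the same pair in which *Ghr* and *Igfals* were lowest, and its lowest liver was *Srsf10-kd* 3. This pair, picked after the levels were seen, was the highest in 454 of the genes tested (2.93%), which is no test of a shared pattern. The log2 fold change was -0.16 (95% interval -1.31 to 0.98, adjusted p = 0.861, edgeR's quasi-likelihood test), and it was 0.14 without *Srsf10-kd* 3, 0.25 without *Ctrl* 4 and -0.75 without *Srsf10-kd* 1.

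*Igfbp2* (ENSMUSG00000039323, chromosome 1 from 72824503 to 72852474, plus strand), another IGF-binding protein secreted by hepatocytes, was at 449, 608, 985 and 1143 CPM in *Ctrl* and at 850, 472, 571 and 1159 CPM in *Srsf10-kd*. The fourth liver of each group was the highest, *Ctrl* 1 was the lowest, and the groups overlapped over nearly their whole range. The log2 fold change was -0.06 (95% interval -0.82 to 0.70, adjusted p = 0.926, edgeR's quasi-likelihood test). *Igfbp2* exceeded *Igfbp1* in CPM by 10.4-fold in *Srsf10-kd* 1 and by up to 47.0-fold in *Srsf10-kd* 3.

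*Igfbp4* (ENSMUSG00000017493, chromosome 11 from 99041244 to 99054392, plus strand), whose product holds IGFs away from their receptor until it is cleaved, had the smallest SD of log2 CPM within groups of the 10 genes. It was at 1607, 1429, 1336 and 1594 CPM in *Ctrl* livers 1 to 4 and at 1534, 1669, 2225 and 1557 CPM in *Srsf10-kd* livers 1 to 4. Only *Srsf10-kd* 3 and 2 exceeded the highest *Ctrl* liver. The log2 fold change was 0.23 (95% interval -0.11 to 0.56, adjusted p = 0.371, edgeR's quasi-likelihood test), and it was 0.09 without *Srsf10-kd* 3.

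Across the 10 genes, 5 log2 fold changes were above 0 and 5 below, with a median of 0.02 beside 0.01 over all genes tested. Adjusted p was under 0.05 in 0 of 10 by edgeR's quasi-likelihood test, beside 11 of 15491 genes (0.071%). DESeq2 called 0 of 10, beside 5.21% of its genes, and limma-voom, run with quality weights, called 0 of 10, beside 11.7%. By edgeR, 1 of 10 (*Socs2*) had an unadjusted p under 0.05, beside 21.8% of all genes, and 0 of 10 had groups that did not overlap, beside 14.3% of all genes. These counts do not show that the genes were alike in the groups. The intervals still held log2 differences from -0.49 to 0.33 for *Ghr*, from -0.30 to 0.52 for *Igf1* and from -1.23 to 3.25 for *Cish*.

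**Figure D2:**
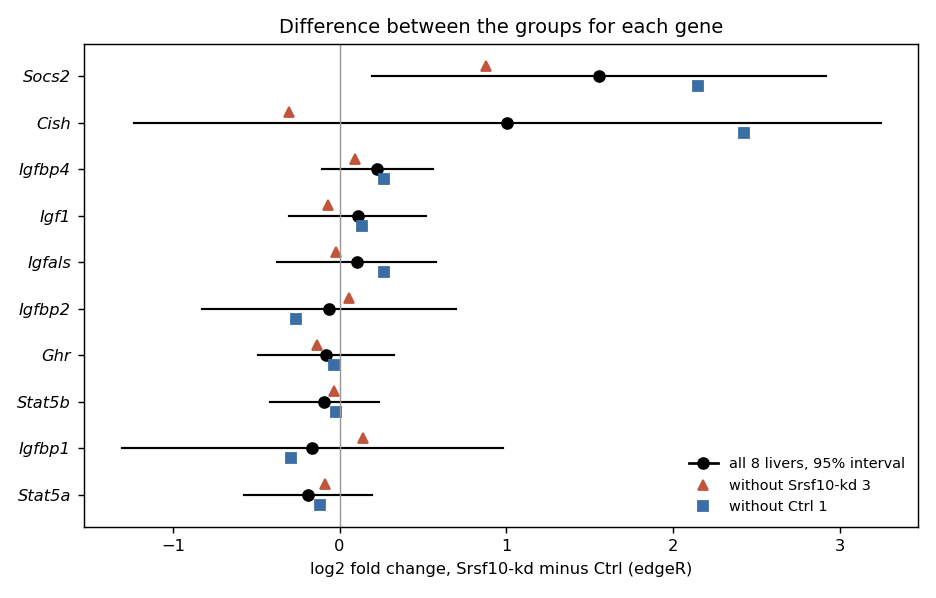
Log2 fold change of each gene, *Srsf10-kd* minus *Ctrl*, from edgeR's quasi-likelihood fit (x axis), with its 95% interval over 8 livers (black) and the value without *Srsf10-kd* 3 (triangles) or without *Ctrl* 1 (squares). Only the interval of *Socs2* (0.19 to 2.92) lies wholly above 0, and *Cish* moves from 1.01 to -0.30 without *Srsf10-kd* 3.

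The 10 genes fell into a variable and a steady set by the SD of log2 CPM within groups, pooled over both groups. Over all genes tested the median of this SD was 0.26 and its 99th percentile 0.96. *Cish* had an SD of 1.79, which only 12 of the 15491 genes exceeded, and *Socs2* had 1.06, which 104 exceeded. *Igfbp1* followed with 0.93 and *Igfbp2* with 0.60, the latter just under the 95th percentile of 0.64. The other 6 genes lay near the middle of the distribution, *Igfals* at 0.36, *Ghr* and *Igf1* at 0.29, *Stat5a* at 0.27, *Stat5b* at 0.22 and *Igfbp4* at 0.20. The receptor, the transcription factors and the hormone thus varied as a usual gene did, and the genes of the feedback inhibitors were among the most variable measured.

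**Figure D3:**
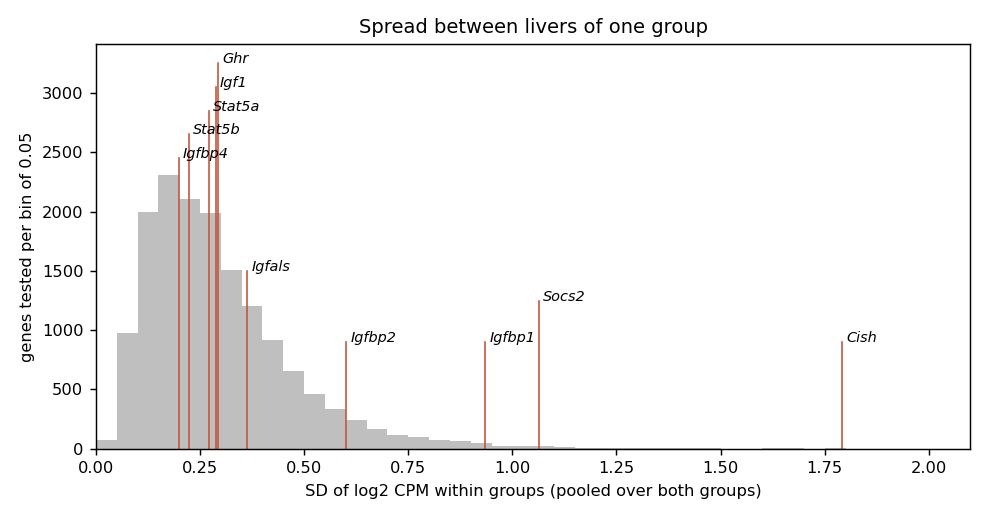
Number of genes tested (y axis) by the SD of their log2 CPM within groups (x axis, bins of 0.05; values above 2.1 are not drawn), with the 10 genes as red lines whose height carries no value. *Igfbp1*, *Socs2* and *Cish* lie at 0.93, 1.06 and 1.79, while the median gene is at 0.26.

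*Socs2*, *Cish* and *Igfals* had the same 3 livers highest, *Ctrl* 1, *Srsf10-kd* 3 and *Srsf10-kd* 4, which was so in 210 of the genes tested (1.36%). These 3 livers were picked after the levels of these genes were seen. This share and the one given for *Bcl6* below are therefore no test of a shared pattern. *Onecut1*, a liver transcription factor gene that growth hormone induces, was named after its values were seen. It was at 18.7, 3.04, 4.24 and 2.32 CPM in *Ctrl* and at 2.21, 2.08, 18.9 and 6.77 CPM in *Srsf10-kd*, with the same 3 livers highest and a log2 fold change of 0.08 (adjusted p = 0.960, edgeR's quasi-likelihood test). *Bcl6*, a repressor gene that growth hormone lowers through STAT5, was at 11.3, 54.9, 18.4 and 57.5 CPM in *Ctrl* and at 17.0, 23.4, 14.7 and 5.63 CPM in *Srsf10-kd*. Its lowest livers were those same 3, which was so in 204 of the genes tested (1.32%). The groups of *Bcl6* overlapped, and its log2 fold change was -1.23 (adjusted p = 0.227, edgeR's quasi-likelihood test). Other STAT5-responsive genes of the list below did not share the pattern. *Socs3*, *Serpina3k*, *Cdkn1a*, *Pim1*, *Bcl2l1*, *Cebpb* and *Fos* had these 3 livers neither highest nor lowest. *Cdkn1a*, for instance, was highest in *Ctrl* 2 at 59.0 CPM. All of these but *Cebpb* and *Fos* were named after their values were seen.

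The levels of *Ghr*, *Stat5a* and *Stat5b* did not have these 3 livers highest. *Ghr* was at 517, 491 and 395 CPM in them and at 328 to 531 CPM in the others. *Igf1* was highest in *Srsf10-kd* 3, at 648 CPM, but at 468 and 461 CPM in *Ctrl* 1 and *Srsf10-kd* 4 it was within the range of the other 5 livers, 356 to 515 CPM. *Igfals*, at 89.0 to 110 CPM in the 3 livers and 54.2 to 86.5 CPM in the others, spanned far less than *Socs2* and *Cish*. *Cish* exceeded *Socs2* in CPM in *Ctrl* 1, *Ctrl* 3 and *Srsf10-kd* 3, by up to 2.0-fold, and was lower in the others, down to 0.36 of it in *Srsf10-kd* 1.

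**Figure D4:**
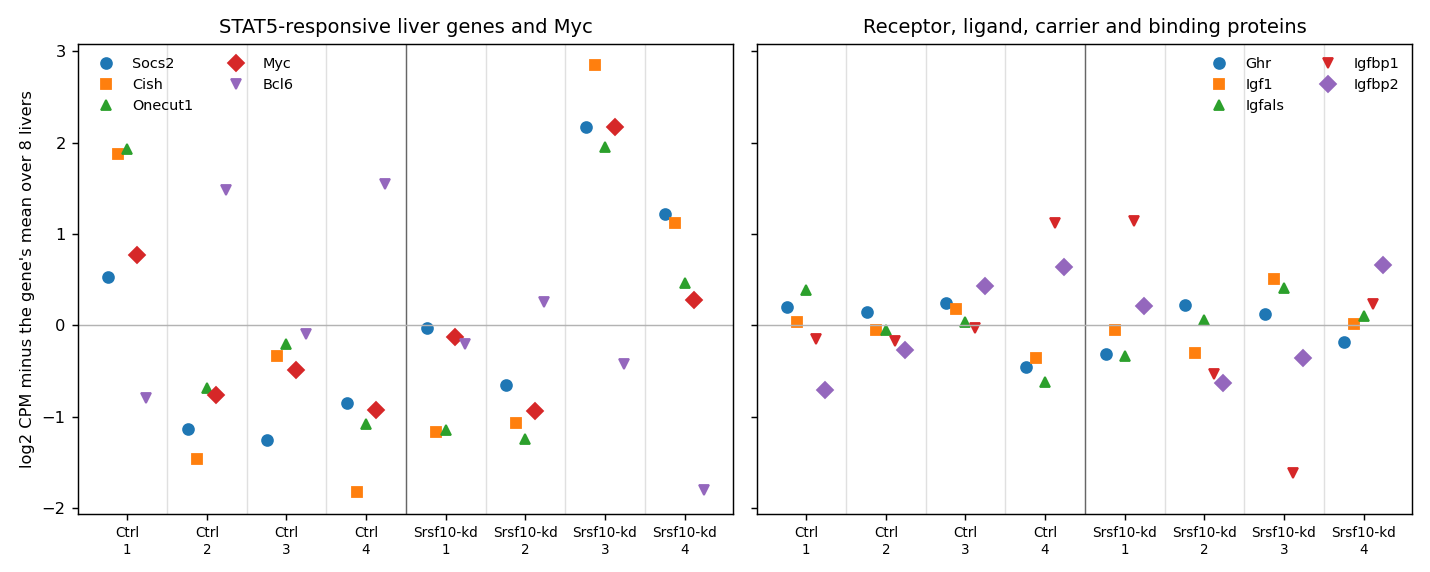
Log2 CPM of each gene minus its own mean over the 8 livers (y axis) in each liver (x axis); left, *Socs2*, *Cish*, *Onecut1*, *Bcl6* and *Myc*, right, *Ghr*, *Igf1*, *Igfals*, *Igfbp1* and *Igfbp2*. On the left *Ctrl* 1, *Srsf10-kd* 3 and *Srsf10-kd* 4 are highest except in *Bcl6*, where they are lowest. The genes on the left were drawn with their values known, *Myc* as a gene most like *Socs2*. The STAT5-responsive genes *Socs3*, *Serpina3k*, *Cdkn1a*, *Pim1*, *Bcl2l1*, *Cebpb* and *Fos*, which lack this pattern, are not drawn. On the right *Ctrl* 4 and *Srsf10-kd* 1 are high in *Igfbp1* and low in *Ghr* and *Igfals*.

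Likeness to a gene's pattern was measured as the root mean square difference of log2 CPM over the 8 livers, each gene centred on its mean, among 10966 genes with a mean log2 CPM of at least 1. The genes most like *Socs2*, whose own deviation from its mean was 1.14, were *Hba-a2* (0.39), *Myc* (0.47) and *mt-Ti* (0.49), and *Cish* was at place 111 (0.83). *Hba-a2*, a haemoglobin gene of red blood cells, was at 14.2, 10.2, 8.85 and 8.76 CPM in *Ctrl* and at 14.2, 11.3, 50.4 and 32.7 CPM in *Srsf10-kd*, highest in the last 2 livers like *Socs2*. The haemoglobin genes *Hba-a1* and *Hbb-bs*, named after their values were seen, were at 130 and 436 CPM in *Srsf10-kd* 3, at 101 and 340 CPM in *Srsf10-kd* 4, and at most at 50.7 and 167 CPM in the other livers. The part of blood in the *Socs2* values was not tested. *Myc*, a growth-related transcription factor gene, was at 8.23, 2.85, 3.42 and 2.53 CPM in *Ctrl* and at 4.41, 2.52, 21.7 and 5.81 CPM in *Srsf10-kd*, with the same 3 livers highest.

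The genes most like *Ghr* (own deviation 0.26) were *Mettl7a1* (0.08), *Ces2a* (0.10) and *Haao* (0.10). *Mettl7a1* was lowest in *Ctrl* 4 and *Srsf10-kd* 1, both at 142 CPM, as *Ghr* was. The genes most like *Igf1* (own deviation 0.25) were *Xbp1*, a transcription factor gene of the secretory pathway (0.07), *Tspan4* (0.08) and *Derl2*, of the endoplasmic reticulum (0.08). *Xbp1* was highest in *Srsf10-kd* 3 at 300.1 CPM. The genes most like *Igfbp1* (own deviation 0.83) were *Hunk* (0.22), *Cyp4a31* (0.24) and *9430037G07Rik* (0.25). *Cyp4a31*, of a family of fatty acid hydroxylases with close paralogs whose reads may be shared, was at 132 CPM in *Ctrl* 4 and at 87.5 CPM in *Srsf10-kd* 1, its highest livers as in *Igfbp1*.

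Levels were compared between genes as the CPM per kb of exon over the 8 livers (mean ± SD, n = 8). *Igfbp2* (422 ± 158) and *Igfbp4* (367 ± 60.4) came first and did not differ beyond their spread. *Ghr* (50.4 ± 8.98) and *Igf1* (46.7 ± 9.19) followed, then *Igfbp1* (28.4 ± 16.5) and *Igfals* (26.8 ± 6.04), with overlap within each pair. *Stat5b* (6.77 ± 1.01) was above *Stat5a* (1.98 ± 0.368), whose levels of 1.45 to 2.43 lay below the lowest *Stat5b* level of 5.6. *Cish* (2.13 ± 2.69) and *Socs2* (1.34 ± 1.33) were near *Stat5a* on average and spanned it from both sides. Per kb of the longest transcript, *Ghr* (109 ± 19.5) was above *Igf1* (65.5 ± 12.9) by more than the SD of either, and the order within *Igfals* and *Igfbp1*, and among *Stat5a*, *Socs2* and *Cish*, changed.

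The direct partners of the 10 genes were also without a call in edgeR's quasi-likelihood test, which called 0.071% of all genes tested. *Jak2*, the receptor's kinase, had a log2 fold change of -0.15 (adjusted p = 0.422), and *Insr*, the insulin receptor gene, one of -0.28 (adjusted p = 0.365). *Igf1r*, the IGF1 receptor gene, was low in these livers, at 0.37 to 1.05 CPM, and its log2 fold change was -0.59 (adjusted p = 0.256). *Igfbp3*, which forms the blood complex with *Igfals* and is made mainly by non-parenchymal liver cells, was at 13.0 to 18.3 CPM in *Ctrl* and at 16.4 to 32.4 CPM in *Srsf10-kd*, highest in *Srsf10-kd* 3 (log2 fold change 0.45, adjusted p = 0.236).

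Of 25 genes of growth hormone receptor and STAT5 signalling, all tested, 11 had a log2 fold change above 0 and 14 below, with a median of -0.08, and 0 passed the adjusted p in either direction. An unadjusted p under 0.05 was reached by 2 higher and 4 lower genes (6 of 25, beside 21.8% of all genes), and the groups did not overlap in 4 genes (beside 14.3% of all genes). Both shares are near those over all genes and are no result about the list. As the test called only 0.071% of all genes tested, 0 calls is no result about this list or those below either. *Irs2*, a docking protein of the insulin and IGF1 receptors, was at 9.13, 9.50, 5.13 and 13.8 CPM in *Ctrl* and at 3.71, 1.94, 2.02 and 3.47 CPM in *Srsf10-kd*. Every *Srsf10-kd* liver was below every *Ctrl* liver, and the log2 fold change was -1.75 (SE 0.32, adjusted p = 0.083, edgeR's quasi-likelihood test). *Ptpn2* and *Ptpn1* encode phosphatases that act on JAK kinases, and their groups did not overlap either, with log2 fold changes of 0.39 (adjusted p = 0.138) and -0.28 (adjusted p = 0.183). The adaptor gene *Shc1*, named after its values were seen, had a log2 fold change of -0.34 without overlap and the phosphatase gene *Ptpn11* one of -0.39 with overlap (adjusted p = 0.208 for both, same test).

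Of 20 genes of IGF ligands, receptors and binding proteins, 16 were tested, 11 above 0 and 5 below, the median log2 fold change 0.27, and 0 calls. An unadjusted p under 0.05 was reached by 4 higher genes and 1 lower gene (5 of 16, beside 21.8% of all genes), and the groups did not overlap in 1 gene (beside 14.3%). That gene was *Stc1*, whose product restrains the protease that cleaves IGFBP4. It was at 1.91 to 3.24 CPM in *Ctrl* and at 3.40 to 4.4 CPM in *Srsf10-kd* (log2 fold change 0.80, adjusted p = 0.115, edgeR's quasi-likelihood test). *Igf2*, the fetal IGF gene, was at 0.94 to 1.83 CPM and at 1.83 to 2.33 CPM (log2 fold change 0.75, adjusted p = 0.133), and *Igfbp6* had a log2 fold change of 1.07 (adjusted p = 0.156). *Igf2r*, the receptor that clears IGF2, was at 24.5 to 59.5 CPM in *Ctrl* and at 19.4 to 37.2 CPM in *Srsf10-kd* (log2 fold change -0.65, adjusted p = 0.212). Summed markers of cholangiocytes moved with the groups as well, at 43.6 to 51.3 CPM in *Ctrl* and at 57.5 to 76.2 CPM in *Srsf10-kd*, with 7 of 8 markers above 0 in log2 fold change and none at 0. Their part in these low IGF genes was not tested. The sums for stellate cells (358 to 396 and 312 to 488 CPM), Kupffer cells and macrophages (289 to 425 and 241 to 443 CPM), endothelial cells (359 to 401 and 318 to 378 CPM) and lymphocytes (10.9 to 14.6 and 8.84 to 12.2 CPM) overlapped between the groups.

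Many sex-biased liver genes depend on the rhythm of growth hormone release. Of 20 male-biased genes, all tested, 6 were above 0 and 14 below, the median log2 fold change -0.21, and 0 calls. Those with an unadjusted p under 0.05 were *C8a*, of the complement system (-0.46), *Slco1a1*, an organic anion transporter gene (-0.53), and *Bcl6* (-1.23). That is 3 of 20 beside 21.8% of all genes, and 0 of 20 had groups that did not overlap, beside 14.3%. Of 30 female-biased genes, 29 were matched and 21 tested, 15 above 0 and 6 below, with a median of 0.17 and 0 calls. *Prom1* (0.41), *A1bg* (1.25) and *Cyp2b13* (5.17) had an unadjusted p under 0.05 with a higher value and *Acot4* (-0.39) with a lower one, 4 of 21 beside 21.8% of all genes. The value of *Cyp2b13* came from a single liver, as it was at 111 CPM in *Srsf10-kd* 2 and at most at 3.03 CPM in the others. The same liver was the highest in *Cyp2b9* (362 CPM, at most 90.5 in the others) and *Cyp2a4* (47.1 CPM, at most 4.28 in the others), which were named after their values were seen. All 3 are cytochrome P450 genes with close paralogs, whose counts are uncertain. In *Srsf10-kd* 2 itself *Ghr*, *Stat5a* and *Stat5b* were the highest of their group, and *Igf1* was the lowest of its group.

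Of 14 STAT5-responsive liver genes, all tested, 10 were above 0 and 4 below, the median log2 fold change 0.11, and 0 calls. *Socs2*, *Cish*, *Igf1*, *Igfals* and *Ghr* are among them. *Cebpb*, a transcription factor gene of the acute response, was at 89.1 to 154 CPM in *Ctrl* and at 166 to 246 CPM in *Srsf10-kd*. Its log2 fold change was 0.71 (adjusted p = 0.119, edgeR's quasi-likelihood test). Its groups did not overlap, which was so in 1 of 14 genes of the list, beside 14.3% of all genes. *Fos*, an immediate early gene, had a log2 fold change of 0.65 (adjusted p = 0.122). *Socs2* and *Bcl6* were the other genes of the list with an unadjusted p under 0.05, 4 of 14 in all beside 21.8% of all genes.

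**Figure D5:**
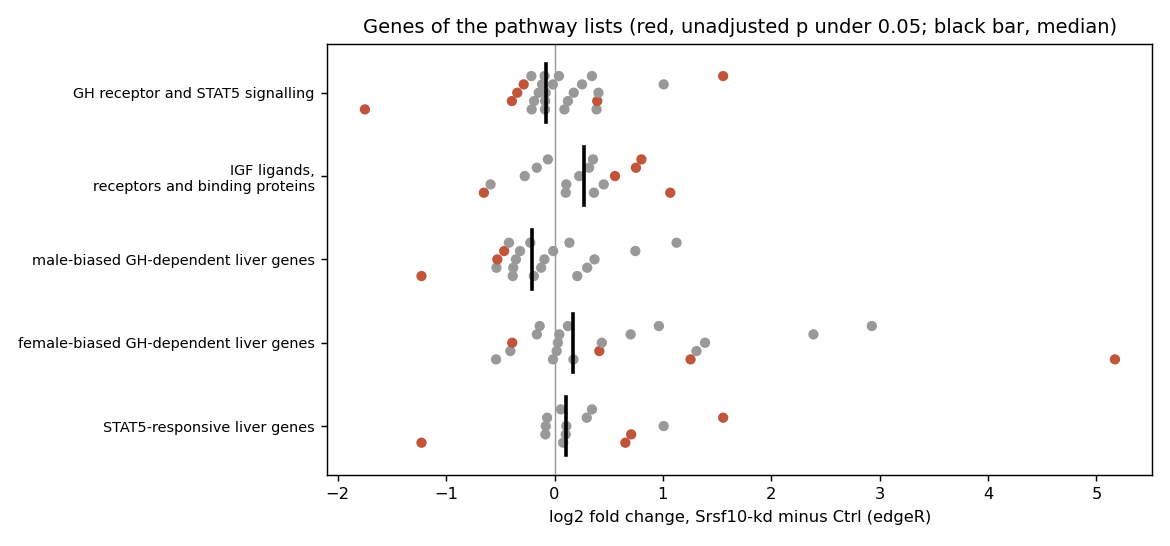
Log2 fold change, *Srsf10-kd* minus *Ctrl*, of each gene tested in the 5 lists (points; red, unadjusted p under 0.05 in edgeR's quasi-likelihood test) with the list's median (black bar); vertical place within a list carries no value. Medians lie between -0.21 for male-biased and 0.27 for IGF genes, and 0 genes pass the adjusted p of 0.05.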

How the data were processed

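Poly(A)-selected liver RNA was sequenced from both ends with a directional kit. Alignment by the authors was to GRCm38 with STAR 2.7.7a, and they deposited raw counts per gene, as STAR counted them, without normalization; the annotation release and strand setting are not given in the sources used here. The deposited counts summed to 50538612 to 59697241 per *Ctrl* library and to 50456404 to 56575926 per *Srsf10-kd* library, which limits the precision of low genes. No pair of libraries was a duplicate, since chi-square per degree of freedom was at least 51.0. Identifiers were matched to GENCODE M21 (45143 of 45706), which also gave positions and lengths.

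Groups were compared in R 4.3.3 with edgeR 4.0.16 (TMM, filterByExpr, two-sided quasi-likelihood test on condition, no covariate, Benjamini-Hochberg adjustment over 15491 genes, threshold 0.05). Log2 levels used a prior count of 2. The study used DESeq2, which (version 1.42.0) was an alternative here, as were limma-voom with quality weights (limma 3.58.1), DESeq2's size factors, library size only, no filter, a replicate block, a minimum of 10 counts per liver, removal of each library's lowess trend (span 0.5) on transcript length, and each liver left out. An exact permutation test, two-sided, was run on single genes. Scripts were tested on simulated data.

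The 10 genes, the gene lists, written from general knowledge, and the tests were chosen with earlier results of these data known. Beside the 10 genes and *Srsf10*, the text names 5 direct partners (*Jak2*, *Igf1r*, *Igf2*, *Igfbp3*, *Insr*), from each pathway list the genes with adjusted p under 0.05 and up to 3 per direction with the smallest unadjusted p under 0.05, and the 3 genes most like *Ghr*, *Igf1*, *Socs2* and *Igfbp1*. Other genes are marked as named after their values were seen.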

Additional observations from a re-analysis of the deposited data

Results flagged for a closer look

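In each of the 20 sets of 4 livers (10 genes in 2 groups) the liver farthest from the rest was examined. Its gap over the range, taken on log2 CPM, was compared with Dixon's 95% critical value. Chance gives about 1 such set in 20, and 2 were found on that scale. *Ghr* in *Ctrl* 4 was at 328 CPM, with the other *Ctrl* livers between 499 and 531 CPM (gap over range 0.872). *Igfbp1* in *Ctrl* 4 was at 80.3 CPM, with the other *Ctrl* livers between 32.9 and 36.3 CPM (gap over range 0.890). Both were in the same liver, in opposite directions. Without it the log2 fold change was -0.22 for *Ghr* and 0.25 for *Igfbp1*, and edgeR's quasi-likelihood test called neither gene. The sets found depend on the scale. In linear CPM *Ctrl* 1 also stood apart from the other *Ctrl* livers in *Socs2* (13.1 against 3.78 to 5.0 CPM). The same held in *Cish* (26.1 against 2.0 to 5.63 CPM).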

How the results depend on the processing

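None of the 10 genes passed the adjusted p of 0.05 under any of the 16 alternatives, and the lowest adjusted p over all of them was 0.138, for *Socs2* without *Srsf10-kd* 2, with 0 to 2 genes at an unadjusted p under 0.05. Of the log2 fold changes under these alternatives, 142 kept their direction and 18 turned. With the trend on transcript length removed, *Ghr* was at 0.014 and *Stat5b* at 0.076. With limma-voom and quality weights, *Igf1* was at -0.00094, *Igfals* at -0.062, *Igfbp1* at 0.29 and *Igfbp2* at 0.41. The cause was not tested. With 1 liver at a time left out, log2 fold changes ran from -0.22 to 0.0038 for *Ghr*, -0.34 to -0.09 for *Stat5a*, -0.22 to -0.02 for *Stat5b*, 0.88 to 2.15 for *Socs2*, -0.30 to 2.43 for *Cish*, -0.070 to 0.21 for *Igf1*, -0.053 to 0.27 for *Igfals*, -0.75 to 0.25 for *Igfbp1*, -0.34 to 0.16 for *Igfbp2* and 0.09 to 0.29 for *Igfbp4*. The count of the 10 genes with groups that did not overlap ran from 0 to 1, the 1 being *Socs2* without *Ctrl* 1. The share over all genes was not computed with a liver left out.

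The count over all genes, 11 with edgeR, was 819 with DESeq2 (5.21% of its genes, 311 higher, 508 lower). With limma-voom it was 1814 (11.7% of its genes, 779 higher, 1035 lower), without a filter 46 and with the replicate block 59. It ran from 0 to 544 with livers left out, the highest when *Ctrl* 3 was dropped, then 64 (*Srsf10-kd* 3 dropped), 5 (*Ctrl* 4), 4 (*Ctrl* 1) and 0 (*Ctrl* 2, or any other *Srsf10-kd* liver, where 2154 to 3656 genes had an unadjusted p under 0.05). The calls per list are to be read beside those shares over all genes. The receptor and STAT5 signalling list, at 0, had 1 call of 25 with DESeq2 (*Irs2*) and 3 with limma-voom (*Irs2*, *Ptpn11*, *Ptpn2*). It had 1 without a filter, 1 with the replicate block and 0 to 1 with livers left out, the 1 without *Ctrl* 3. The IGF list had 2 with DESeq2 (*Igf2*, *Stc1*), 4 with limma-voom (*Igf2*, *Igf2r*, *Igfbp6*, *Stc1*) and 0 to 2 with livers left out. The female-biased list had 1 with limma-voom (*A1bg*). The STAT5-responsive list had 2 with DESeq2 and 2 with limma-voom (*Cebpb*, *Fos*), and 0 to 1 with livers left out. The male-biased list had 0 calls under every alternative run.

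Replicate numbers are shared between the groups, but same-numbered livers did not deviate together in every pair (correlations -0.18, 0.21, 0.27 and 0.22), so the numbers were not taken as a pairing. With the replicate block, *Socs2* had a log2 fold change of 1.34 and *Cish* of 1.13, and 0 of the 10 genes were called.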
